A study of Homo sapiens with 24 samples.

Results

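The genes described here are 9 feedback inhibitors of the ERK pathway, chosen by symbol among the 26346 genes of the tables, with earlier results of these data known. They are the MAP kinase phosphatases DUSP4, DUSP5 and DUSP6, the Sprouty genes SPRY1, SPRY2 and SPRY4, the Sprouty-related genes SPRED1 and SPRED2, and PHLDA1. RNA was sequenced in 24 libraries from 3 human cancer cell lines, in 12 groups of 2 libraries. VCaP, a prostate cancer line with a TMPRSS2-ERG fusion, received a lentiviral shRNA against ERG (shERG), an shRNA against ARID1A (shARID1A) or a control shRNA (shCt). LNCaP, a prostate cancer line without that fusion, received ERG, ETV1 or an empty vector (Empty). SW13, an adrenocortical carcinoma line, received a pair of constructs, of which the first was BRG1, BRG1-K785R (a mutant in the ATPase of BRG1) or GFP and the second ERG or an empty vector. SW13 groups are named by both, as BRG1 ERG, BRG1 Empty, BRG1-K785R ERG, BRG1-K785R Empty, GFP ERG and GFP Empty. All cells had thus been infected and selected, controls included, with selection for 8 days in VCaP, 4 days in LNCaP and 2 days in SW13, and the 2 libraries of a group came from independent infections. ERG and ETV1 are transcription factors of the ETS family, and ARID1A and BRG1 (encoded by SMARCA4) are subunits of the BAF chromatin remodelling complex.

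ERK is the last kinase of a cascade that runs from growth factor receptors through RAS, RAF and MEK to the nucleus, where it changes transcription. Part of that response is a set of brakes: DUSP4, DUSP5 and DUSP6 remove the activating phosphates from ERK, Sprouty and SPRED proteins act upstream on RAS and RAF, and PHLDA1 is an ERK-induced gene whose product has been described as an inhibitor of receptor and AKT signalling. The mRNA of these genes is therefore widely read as a measure of ERK output, and several ETS factors are themselves targets of ERK.

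Libraries held 19754265 to 41996681 counts, and all 9 genes passed the filter on low counts in each line. Levels are CPM, the count scaled to a library total of 1000000, given for library 1 and then library 2 of a group, and levels of different genes are compared in RPKM, which also divides by gene length. Changes are log2 changes ± standard error from the quasi-likelihood test of edgeR, two-sided, with Benjamini-Hochberg adjustment over all genes tested in a line, and a gene is called at an adjusted p below 0.05. In each line the targeted genes had the levels their labels call for: ERG averaged 84.5 ± 4.90 CPM in shERG cells, against 342 ± 17.0 CPM in shCt cells (SD, n = 2 each), and 977 ± 26.7 CPM with ERG in LNCaP, against 0.448 ± 0.242 CPM with the empty vector. ETV1 was at 3688 ± 87.3 CPM with its construct in LNCaP, against 579 ± 16.1 CPM without. ARID1A was at 73.6 ± 2.37 CPM in shARID1A cells, against 250 ± 1.01 CPM in shCt cells. SMARCA4, not targeted in VCaP, was higher with shERG (0.49 ± 0.04, adjusted p = 2.52e-09) and lower with shARID1A (-0.38 ± 0.05, adjusted p = 1.86e-07). Its part in the changes of the 9 genes was not tested. All 9 prostate luminal markers were above 1 CPM in every VCaP and LNCaP library, but none of 7 adrenal cortex markers was in every SW13 library, where their sum was 0.235 to 1.06 CPM, so the SW13 libraries did not show the marker genes of the labelled tissue. Antisense genes overlap exons of DUSP6 and PHLDA1 in the GENCODE annotation, and since the strand setting of the counting is not given, reads of these genes and of their antisense partners cannot be told apart.

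RefSeq promoter sequences (GRCh38.p14) were used for 7 of the 9 genes. None was used for DUSP4 and DUSP5, so the counts of letters in promoters do not cover these genes. Those printed here belong to SPRY1, SPRY4 and SPRED2, which were higher in LNCaP with either ETS factor, and to SPRY2, which was not called there, and are shown so that the ETS core letters can be compared. Each runs 5′ to 3′ on the strand of the gene and ends at or before the base ahead of the start; the SPRY4 and SPRED2 stretches stop earlier, where an annotated exon begins. Capitals mark GGAA or its reverse complement TTCC.
SPRY1, first start, chr4:123396545-123396794, plus strand: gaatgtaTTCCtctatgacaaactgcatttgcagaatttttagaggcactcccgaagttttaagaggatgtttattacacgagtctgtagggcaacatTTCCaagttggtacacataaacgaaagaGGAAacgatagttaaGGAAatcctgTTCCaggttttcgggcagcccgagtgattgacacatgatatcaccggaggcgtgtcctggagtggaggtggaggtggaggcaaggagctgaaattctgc
SPRY4, chr5:142324418-142324497, minus strand: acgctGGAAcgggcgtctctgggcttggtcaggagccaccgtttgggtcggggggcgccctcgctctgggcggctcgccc
SPRED2, first start, chr2:65432638-65432849, minus strand: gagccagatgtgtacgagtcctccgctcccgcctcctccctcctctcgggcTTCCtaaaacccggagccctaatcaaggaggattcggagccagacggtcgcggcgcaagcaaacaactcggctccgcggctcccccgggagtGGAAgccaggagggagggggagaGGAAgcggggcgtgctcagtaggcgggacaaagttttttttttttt
SPRY2, first start, chr13:80341127-80341376, minus strand: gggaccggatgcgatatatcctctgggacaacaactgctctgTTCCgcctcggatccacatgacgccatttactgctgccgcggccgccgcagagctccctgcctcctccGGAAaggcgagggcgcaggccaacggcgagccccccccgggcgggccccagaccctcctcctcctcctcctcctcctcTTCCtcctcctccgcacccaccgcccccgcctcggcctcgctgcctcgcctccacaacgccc
These stretches, of 250, 80, 212 and 250 bases, hold 5, 1, 3 and 3 cores in that order. Their whole windows of 250 bases hold 5, 2, 4 and 3. The 7 genes have 11 annotated starts, and the core was found on either strand in the 250 bases before each of them, and in 92.7% of all 35116 promoter windows, with a median of 3 matches per window. The longer ETS letters CCGGAA (both strands, each match also a core match) were found in 3 of the 11 windows, those of PHLDA1, of the first start of SPRY2 and of the second start of SPRY1, which is not printed, and in 14.5% of all windows. GGAAGGAA (3.06% of all windows), the AP-1 letters TGANTCA (6.57%) and the CRE letters TGACGTCA (1.65%) were in none of the 11 windows. A match is a string of letters and not a binding site.

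The 3 lines expressed different members of the set. Summed over the 9 genes, the level was 288 to 604 RPKM in the SW13 groups, 51.2 to 158 RPKM in the LNCaP groups and 33.8 to 66.0 RPKM in the VCaP groups. In SW13 the sum was carried by DUSP6 (291 ± 17.5 RPKM in GFP Empty) and SPRY2 (227 ± 8.94 RPKM), in LNCaP by DUSP4 (22.1 ± 1.88 RPKM with the empty vector) and SPRY1 (15.2 ± 0.573 RPKM), and in VCaP by SPRY4 (39.7 ± 2.23 RPKM in shCt) and SPRED2 (11.3 ± 0.431 RPKM). In shERG cells of VCaP, SPRY1 came second, at 6.43 ± 1.08 RPKM, above SPRED2 at 4.10 ± 0.191 RPKM. The lines differ in tissue, construct and selection together, so the differences between lines were not tested.

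**Figure D1:**
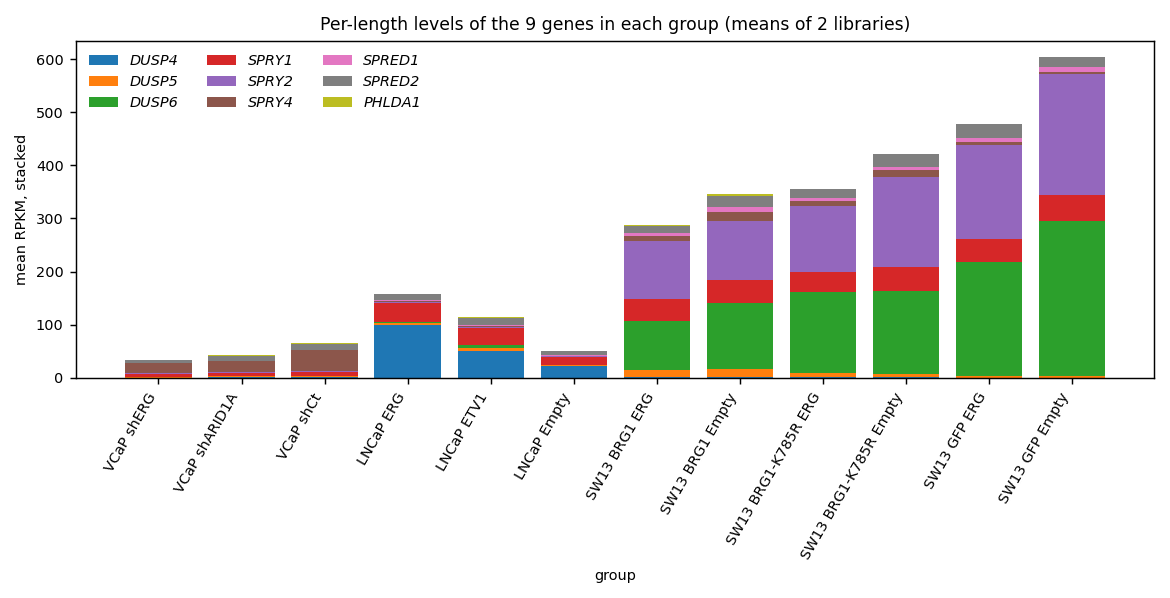
Mean RPKM (counts per gene length and library total) of the 9 genes, stacked for each of the 12 groups (means of 2 libraries). The stacks reach 288 to 604 RPKM in SW13, where DUSP6 and SPRY2 fill most of them, 51.2 to 158 RPKM in LNCaP with DUSP4 as the largest segment, and 33.8 to 66.0 RPKM in VCaP with SPRY4 as the largest.

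Across the 12 groups DUSP6 had the widest range, with a highest group mean (GFP Empty in SW13) 672 times the lowest (shERG in VCaP). All SW13 groups were far above all groups of the prostate lines for DUSP6 and SPRY2. DUSP4 ran the other way, with the 3 LNCaP groups at the top and GFP Empty in SW13 at the bottom, a range of 201 times. SPRY4 was highest in VCaP shCt and lowest in LNCaP Empty, a range of 193 times. The narrowest range, 6.16 times, was that of SPRED2, with GFP ERG in SW13 on top and shERG in VCaP lowest. Between these came DUSP5 (39.2 times, BRG1 Empty in SW13 over shERG in VCaP), PHLDA1 (22.7 times, BRG1 Empty over GFP ERG in SW13), SPRED1 (18.4 times) and SPRY1 (11.7 times), the last pair with GFP Empty in SW13 highest and shARID1A in VCaP lowest.

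Many neighbours in these orders had overlapping libraries. Overlap is a description and not the edgeR test, which called SPRY4 between shARID1A and shERG and SPRY1 between shERG and shCt although these overlapped. Of the 11 pairs of neighbouring groups, the library ranges overlapped in 6 for DUSP4, 5 for SPRY2, 4 each for DUSP5, SPRY1, SPRY4, SPRED1 and PHLDA1, and 3 each for DUSP6 and SPRED2. For DUSP4 the overlaps were among the groups below LNCaP, which all lay between 3.25 and 15.3 CPM. SPRY2 overlapped between BRG1 ERG and BRG1 Empty in SW13 and between neighbours of the prostate lines, except LNCaP ERG and VCaP shERG. DUSP6 overlapped among the 3 VCaP groups and LNCaP Empty, while its 6 SW13 groups were all separate.

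**Figure D2:**
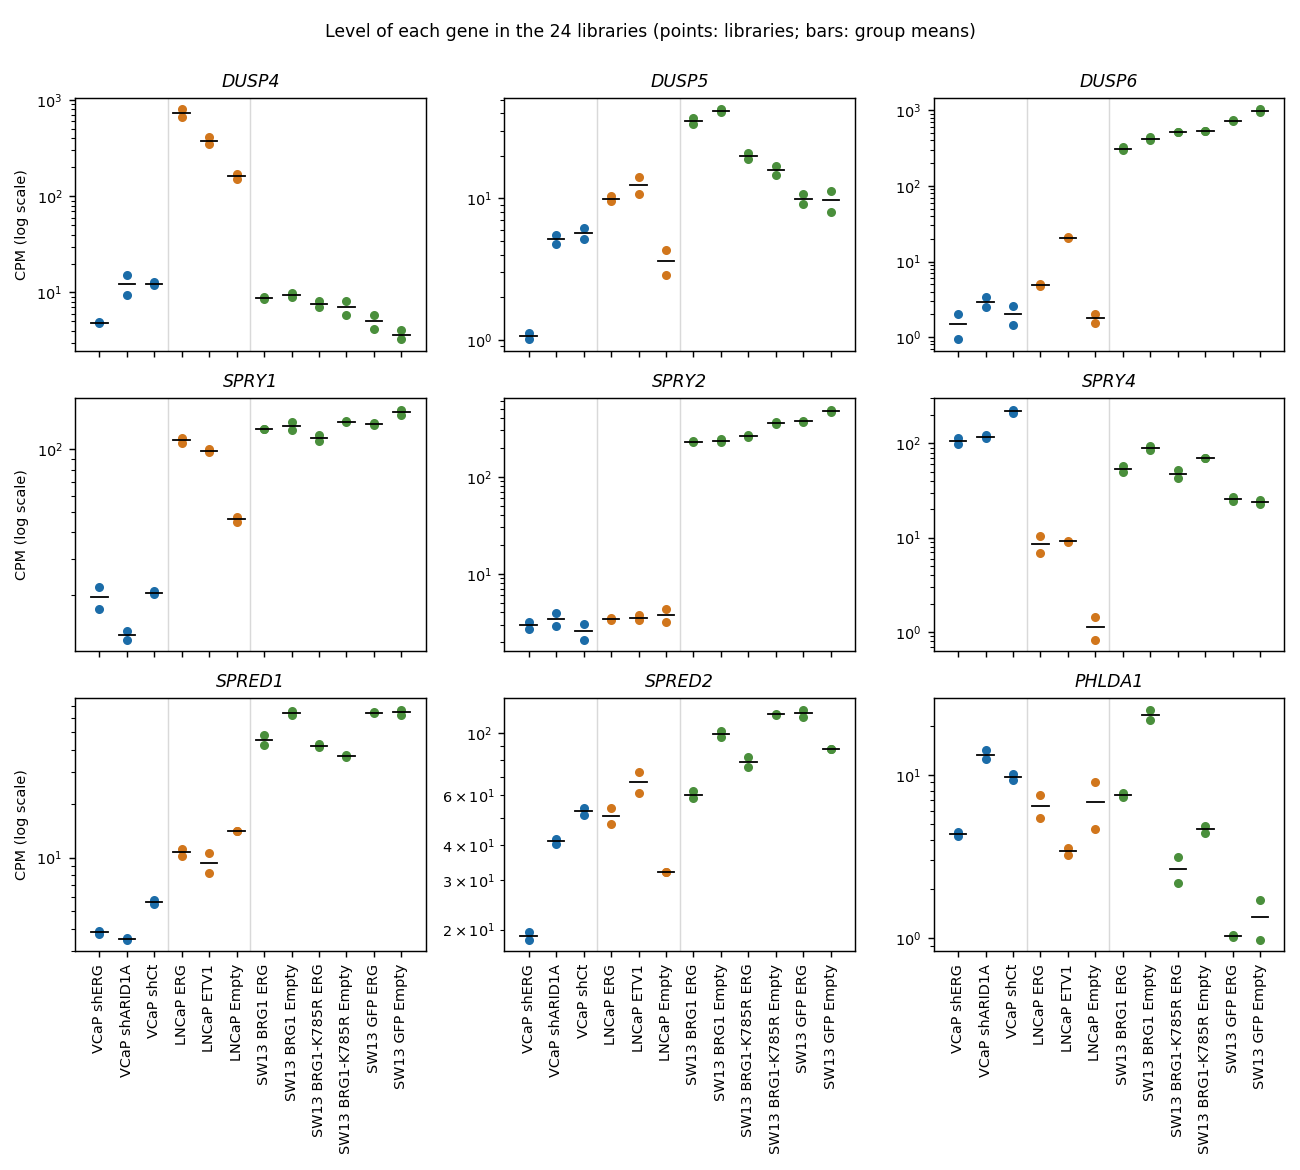
Level of each gene (CPM, log axis, its own scale in each panel) in the 24 libraries: points are libraries, bars are means of 2, and colours and thin lines separate VCaP, LNCaP and SW13. DUSP6 and SPRY2 are high in SW13 alone, at 296 to 1031 CPM and 227 to 492 CPM, DUSP4 is high in LNCaP at 152 to 797 CPM, and SPRY4 is highest in VCaP at 97.6 to 229 CPM.

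The VCaP libraries ask what the set does when the fusion-driven ERG is knocked down. Of the 9 genes, 7 fell with shERG and none rose; 66.7% of all 16791 genes tested were called in this comparison, and 37.4% were called lower. The median log2 change of the 9 genes was -1.24, against -0.05 over all genes tested. Since the genes were chosen with earlier results of these data known, medians of the set, here and in LNCaP, are descriptions. In bulk RNA, fewer cells of a type and less RNA per cell cannot be told apart.

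Among the phosphatases, DUSP5, a nuclear ERK phosphatase, had 1.01 and 1.12 CPM in shERG cells, against 6.14 and 5.20 CPM in shCt cells. The groups did not overlap and the fall was the largest of the 9 (-2.60 ± 0.21, 6.05-fold, adjusted p = 4.3e-10), and rested on 31 and 29 counts in the shERG libraries. DUSP4, which acts on nuclear ERK and JNK, had 4.77 and 4.96 CPM, against 11.9 and 12.8 CPM, and fell 2.89-fold (-1.53 ± 0.17, adjusted p = 6.7e-08). DUSP6, the cytoplasmic ERK phosphatase, was low and uneven, with 2.01 and 0.929 CPM in shERG cells, against 1.45 and 2.60 CPM in shCt cells. These overlapped, and the change of -0.61 ± 0.32 was not called (adjusted p = 0.0989), but it was without shERG 1 (-1.25, adjusted p = 0.011) without shCt 1 (-0.96, adjusted p = 0.0219) and, with all libraries kept, without a filter on low counts (-0.56, adjusted p = 0.0492).

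SPRY4, the largest of the set in VCaP by RPKM, had 114 and 97.6 CPM in shERG cells, against 211 and 229 CPM in shCt cells. Both shERG libraries lay far below both controls (-1.24 ± 0.06, 2.36-fold, adjusted p = 4.39e-14). SPRY2 was near its lowest in this line, at 3.21 and 2.67 CPM, against 3.01 and 2.10 CPM, with overlapping groups and a change of 0.03 ± 0.23 (adjusted p = 0.924). SPRY1 had 21.9 and 17.2 CPM in shERG cells, against 21.0 and 20.2 CPM in shCt cells. Its groups overlapped, and its call (-0.25 ± 0.10, adjusted p = 0.0274) was lost in 8 of 11 alternatives, among them library totals as the scale (-0.07, adjusted p = 0.553). Leaving out shERG 2 gave -0.10 (adjusted p = 0.396), shCt 1 gave -0.22 (adjusted p = 0.128), shARID1A 1 gave -0.20 (adjusted p = 0.091) and shARID1A 2 gave -0.20 (adjusted p = 0.0907).

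SPRED2, whose protein family brings neurofibromin to RAS, had 19.7 and 18.4 CPM in shERG cells, against 51.2 and 54.0 CPM in shCt cells. The groups stood wide apart (-1.65 ± 0.07, 3.13-fold, adjusted p = 4.67e-15). SPRED1 fell less, with 3.89 and 3.76 CPM, against 5.79 and 5.47 CPM (-0.74 ± 0.16, adjusted p = 0.000291). PHLDA1 had 4.48 and 4.22 CPM in shERG cells, against 9.35 and 10.1 CPM in shCt cells, and fell 2.54-fold (-1.34 ± 0.13, adjusted p = 8.08e-09). The scale mattered in this comparison: with library totals in place of TMM factors the median of all genes moved up by 0.18, and 60.5% of called genes were higher, against 43.9% with TMM. All falls but that of SPRY1 were still called on that scale.

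Other pathway genes moved less uniformly with shERG, where 29.3% of all genes tested were called higher and 37.4% lower. Of 18 tested receptors and ligands, 4 rose, 6 fell and 8 were not called; the falls included the EGF receptor EGFR (5.49 ± 0.0114 CPM in shERG cells, against 25.7 ± 1.76 CPM in shCt cells, -2.41 ± 0.10, adjusted p = 2.88e-15) and its ligands TGFA (-1.95 ± 0.07, adjusted p = 7.77e-16) and HBEGF (-2.12 ± 0.09, adjusted p = 5.69e-15). Of 13 kinase cascade genes, 2 rose and 9 fell. Of 13 further feedback and inhibitory genes, 6 rose and 5 fell: CIC, a repressor that ERK inactivates, rose (0.97 ± 0.05), as did DUSP8 (0.93 ± 0.07), while DUSP1 fell (-1.14 ± 0.10). Of 9 tested ERK output genes outside the set, 2 rose, EPHA4 (1.67 ± 0.13) and FOS (0.71 ± 0.11), and MYC fell (-0.23 ± 0.05), and their median change was -0.19. The 9 luminal markers summed to 8976 and 9314 CPM in shERG cells, against 13702 and 14311 CPM in shCt cells, and the 5 fibroblast markers to 81.1 and 82.5 CPM, against 29.5 and 30.1 CPM. The leukocyte list stood at 2.27 to 2.59 CPM, against 8.87 to 9.20 CPM. Their part in the changes of the 9 genes was not tested.

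With shARID1A, 1 of the 9 genes rose, 4 fell and 4 were not called, where 66.1% of all genes were called, 32.9% higher and 33.2% lower. SPRY4 had 113 and 122 CPM in shARID1A cells, against 211 and 229 CPM in shCt cells, with no overlap (-0.97 ± 0.06, adjusted p = 2.17e-12). SPRY1 had 12.3 and 13.4 CPM, against 21.0 and 20.2 CPM (-0.75 ± 0.10, adjusted p = 1.58e-06). SPRED1 had 3.56 and 3.48 CPM, against 5.79 and 5.47 CPM (-0.74 ± 0.16, adjusted p = 0.000368). In these 3 genes both knockdown libraries lay below both controls, as they did in SPRED2, at 42.0 and 40.4 CPM, against 51.2 and 54.0 CPM (-0.42 ± 0.06, adjusted p = 5.01e-06). PHLDA1 was the gene that rose, with 14.2 and 12.5 CPM in shARID1A cells, against 9.35 and 10.1 CPM (0.39 ± 0.11, adjusted p = 0.00443), a call lost without shARID1A 1 (0.29, adjusted p = 0.0878). The phosphatases were not called: DUSP4 had 15.3 and 9.32 CPM, with the shCt libraries between them (-0.06 ± 0.15), DUSP5 5.55 and 4.72 CPM (-0.20 ± 0.16) and DUSP6 2.51 and 3.35 CPM (0.45 ± 0.29). DUSP4 was called lower without shARID1A 1 (-0.48, adjusted p = 0.00792) and DUSP6 higher without shCt 2 (0.92, adjusted p = 0.0357). SPRY2, at 3.98 and 2.92 CPM (0.38 ± 0.23), was called higher without shCt 1 (0.67, adjusted p = 0.0423).

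The ERK output genes outside the set split with shARID1A: 4 of 9 rose and 3 fell. Of all genes tested, 32.9% were called higher and 33.2% lower. The immediate early genes EGR1 (240 ± 10.1 CPM in shARID1A cells, against 19.9 ± 3.56 CPM in shCt cells, 3.53 ± 0.07, adjusted p = 1.08e-19) and FOS (126 ± 5.34 CPM, against 8.38 ± 0.111 CPM, 3.85 ± 0.09, adjusted p = 6.62e-19) rose, and MYC fell (25.8 ± 0.980 CPM, against 242 ± 17.2 CPM, -3.30 ± 0.06, adjusted p = 3.96e-20). Of 13 further inhibitory genes, 9 rose and 3 fell, with the EGFR inhibitor ERRFI1 (1.15 ± 0.05) and DUSP1 (0.91 ± 0.08) higher and DUSP7 (-1.03 ± 0.07) lower. ERG itself was lower with shARID1A, at 240 ± 2.81 CPM, against 342 ± 17.0 CPM (-0.58 ± 0.05, adjusted p = 7.31e-10). The leukocyte list summed to 22.1 to 28.0 CPM, against 8.87 to 9.20 CPM, with PTPRC at most 0.0391 CPM in any VCaP library. The luminal list stood at 10976 to 11404 CPM, against 13702 to 14311 CPM, and the fibroblast list at 14.4 to 17.1 CPM, against 29.5 to 30.1 CPM. The part of ERG and of these lists in the changes of the set was not tested.

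Set directly against shERG, shARID1A cells had higher DUSP4 (1.48 ± 0.17), DUSP5 (2.40 ± 0.22), DUSP6 (1.06 ± 0.30), SPRY4 (0.27 ± 0.06), SPRED2 (1.23 ± 0.07) and PHLDA1 (1.73 ± 0.13), and lower SPRY1 (-0.50 ± 0.10). That is 7 of 9 genes, where 73% of all genes were called, 36.8% higher and 36.2% lower. SPRED1 was not called between the knockdowns (-0.00 ± 0.17, adjusted p = 0.988), nor was SPRY2 (0.35 ± 0.22, adjusted p = 0.149). Scaling by library totals shifted the all-gene median by -0.12 here. The DUSP6 call was lost without shERG 2 (0.65, adjusted p = 0.0641) or shARID1A 2 (0.81, adjusted p = 0.0703) and reached 1.70 without shERG 1 (adjusted p = 0.000488), and the SPRY4 call was lost without shARID1A 2 (0.16, adjusted p = 0.0605).

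In LNCaP an ETS factor was added. ETV1 was already at 579 ± 16.1 CPM with the empty vector. With ERG added, ETV1 was lower, at 473 ± 41.1 CPM (-0.28 ± 0.06, adjusted p = 0.00804), and its part in the changes was not tested. With ERG 6 of the 9 genes rose and 1 fell, where 29.7% of all 16993 genes tested were called and 15.4% were called higher and 14.3% lower, and the median change was 1.27, against -0.002 over all genes. With ETV1 6 rose and 2 fell, where 26.1% were called and 13.2% were called higher and 12.9% lower, with a median of 1.13, against 0.005. Both comparisons used the same empty vector libraries. Of the genes called with ETV1, 50.5% were higher, and 40.0% on library totals. The count of all genes called with ERG dropped to 2632 without Empty 1 and 2939 without Empty 2, against 5045 with all libraries, and with ETV1 to 1987, 2706 and 2601 without Empty 1, Empty 2 and ETV1 2, against 4439.

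DUSP4 was the most abundant of the set in LNCaP, with 797 and 669 CPM with ERG and 345 and 409 CPM with ETV1, against 152 and 172 CPM with the empty vector. The 3 groups were all apart: ERG over Empty was 2.19 ± 0.11 (4.55-fold, adjusted p = 3e-06), ETV1 over Empty 1.25 ± 0.10 (adjusted p = 6.05e-05) and ERG over ETV1 0.93 ± 0.10 (adjusted p = 0.000562). DUSP6 had 5.06 and 4.74 CPM with ERG and 20.9 and 20.3 CPM with ETV1, against 1.54 and 2.05 CPM with the empty vector. It was 1.46 ± 0.15 over Empty with ERG (adjusted p = 0.000161) and 3.55 ± 0.13 with ETV1 (11.7-fold, adjusted p = 6.69e-07), and ERG over ETV1 was -2.09 ± 0.12 (adjusted p = 1.49e-05). DUSP5 had 10.4 and 9.54 CPM with ERG and 14.1 and 10.7 CPM with ETV1, against 2.87 and 4.29 CPM. It rose with both (1.48 ± 0.20, adjusted p = 0.000761, and 1.82 ± 0.19, adjusted p = 0.000245), and the difference between ERG and ETV1 was not called (-0.34 ± 0.18, adjusted p = 0.241).

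SPRY4 had 6.87 and 10.4 CPM with ERG and 9.01 and 9.27 CPM with ETV1, against 0.831 and 1.45 CPM with the empty vector. It rose 7.51-fold with ERG (2.91 ± 0.27, adjusted p = 8.96e-05) and 8.15-fold with ETV1 (3.03 ± 0.26, adjusted p = 8.01e-05), from 33 and 61 counts in the Empty libraries. SPRY1 had 113 and 108 CPM with ERG and 100.3 and 96.7 CPM with ETV1, against 44.9 and 47.4 CPM. It rose with both, without overlap (1.27 ± 0.05, adjusted p = 1.68e-06, and 1.13 ± 0.05, adjusted p = 2.86e-06). SPRY2, the third Sprouty, stayed at 3.31 and 3.48 CPM with ERG and 3.76 and 3.34 CPM with ETV1, against 3.17 and 4.33 CPM, with all groups overlapping and no call (-0.14 ± 0.19 and -0.05 ± 0.18).

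The SPRED genes parted in LNCaP. SPRED2 had 47.5 and 54.1 CPM with ERG and 72.6 and 61.1 CPM with ETV1, against 31.9 and 31.9 CPM with the empty vector. All ETS libraries were above the controls (0.68 ± 0.09, adjusted p = 0.000896, with ERG and 1.10 ± 0.09, adjusted p = 6.5e-05, with ETV1). ERG was below ETV1 (-0.43 ± 0.09, adjusted p = 0.0154), a call lost without ERG 1 (-0.34, adjusted p = 0.0885) or ETV1 1 (-0.30, adjusted p = 0.0762). SPRED1 had 10.2 and 11.2 CPM with ERG and 10.6 and 8.15 CPM with ETV1, against 14.0 and 14.1 CPM. It was called lower with ERG (-0.39 ± 0.12, adjusted p = 0.042) and ETV1 (-0.55 ± 0.12, adjusted p = 0.0112), and no ETS library reached the controls. The ERG call was lost in 6 of 11 alternatives, with an adjusted p of 0.157, 0.162, 0.175 and 0.0659 without Empty 1, Empty 2, ERG 1 and ERG 2, 0.0631 with DESeq2 and 0.0636 with the replicate number as a block. The ETV1 call was lost without Empty 1 (0.0743), Empty 2 (0.0688) or ETV1 2 (0.057).

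PHLDA1 had 5.42 and 7.53 CPM with ERG and 3.58 and 3.24 CPM with ETV1, against 4.66 and 9.05 CPM with the empty vector. The Empty libraries were uneven, and they lay on both sides of the ERG libraries (-0.09 ± 0.28, adjusted p = 0.85). The fall with ETV1 (-0.97 ± 0.29, adjusted p = 0.0374) was lost without Empty 2 (-0.41, adjusted p = 0.275), ETV1 1 (-1.05, adjusted p = 0.131) or ETV1 2 (-0.90, adjusted p = 0.198). The fibroblast list was uneven in the same pair of libraries, at 22.5 and 91.3 CPM in sum; its part was not tested.

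Set directly against each other, ERG and ETV1 differed in 3 of the 9 genes, where 14.4% of all genes were called, 7.87% higher and 6.5% lower: DUSP4 was higher with ERG, and DUSP6 and SPRED2 were lower. PHLDA1 was higher by 0.89 ± 0.30 with ERG without a call (adjusted p = 0.0805), and was called without Empty 1 (0.89, adjusted p = 0.0241) or Empty 2 (0.88, adjusted p = 0.0251) and, with all libraries kept, by DESeq2 (0.89, adjusted p = 0.0369) and without a filter on low counts (0.89, adjusted p = 0.0447). All genes called in this comparison numbered 2441, with 1471, 1529 and 1003 without ERG 1, ETV1 1 and ETV1 2.

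**Figure D3:**
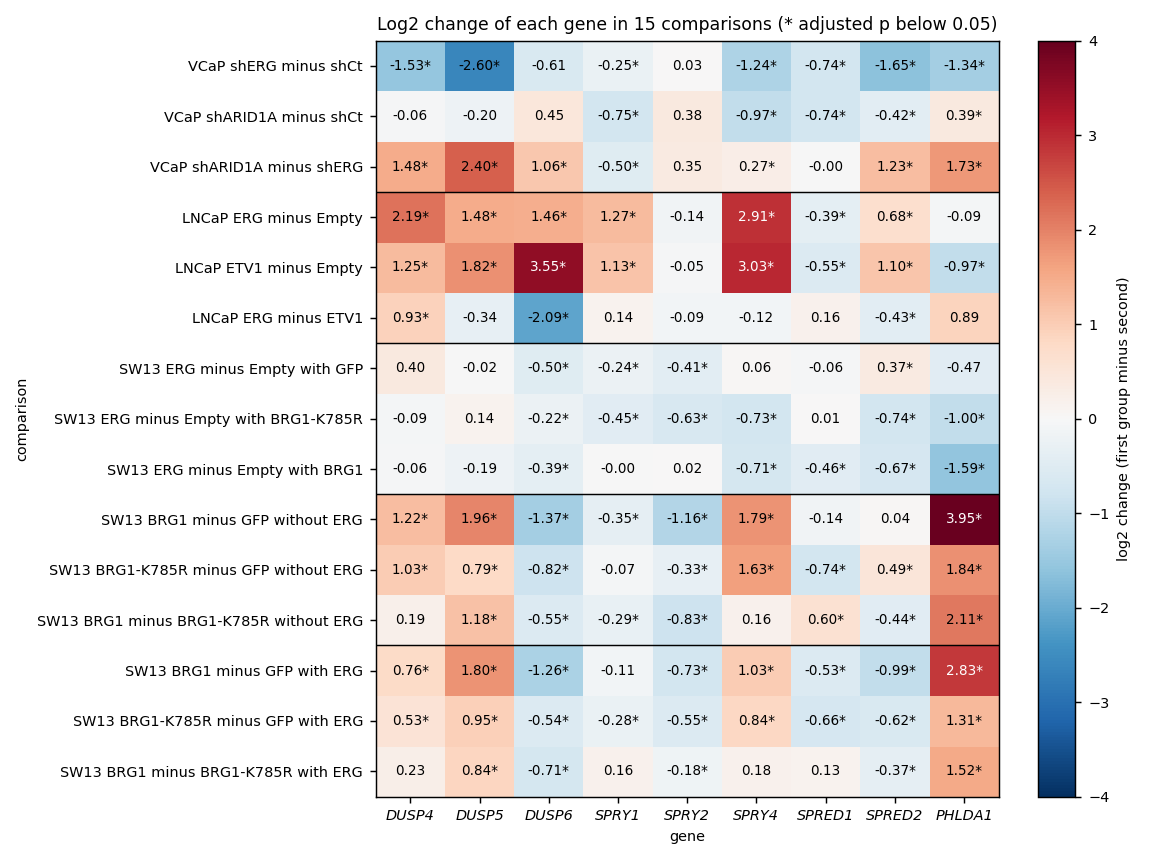
Log2 change (first group minus second, colour and number) of each gene in the 15 comparisons, with lines between blocks of comparisons and an asterisk for an adjusted p below 0.05. With shERG in VCaP 7 of 9 genes are marked and negative, and with ERG and ETV1 in LNCaP 6 are marked and positive; SW13 shows both signs, with PHLDA1 at 3.95 for BRG1 minus GFP.

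In LNCaP the rise of the brakes was not shared by the ERK output genes outside the set. Of these 11 genes (EPHA2 also stands in the receptor list), none rose, 3 fell and 8 were not called with ERG by edgeR, and the counts were the same with ETV1. Of all genes tested, 15.4% were called higher and 14.3% lower with ERG, and 13.2% higher and 12.9% lower with ETV1. MYC (-0.47 ± 0.08, adjusted p = 0.00302) and IER3 (-0.89 ± 0.16, adjusted p = 0.00375) fell with ERG, and IER3 (-0.82 ± 0.16) and EPHA2 (-0.42 ± 0.11) fell with ETV1. FOSL1 fell with both, but against an uneven control of 3.13 ± 2.58 CPM. Of 13 further feedback and inhibitory genes, 4 rose and 1 fell with ERG and 5 rose and none fell with ETV1, among them DUSP8 (0.38 ± 0.07 and 0.50 ± 0.07). Of 17 receptors and ligands, 3 rose and 3 fell with ERG, with HBEGF (1.67 ± 0.12) and FGFR1 (0.85 ± 0.10) higher and IGF1R (-0.68 ± 0.07) lower, and 3 rose and 5 fell with ETV1. The adaptor SHC1 rose with ERG (0.68 ± 0.05) and with ETV1 (0.66 ± 0.05). The endothelial list stood at 53.9 to 62.4 CPM with ERG and 57.0 to 60.5 CPM with ETV1, against 25.8 to 26.5 CPM. That sum was nearly all VWF, at 25.0 to 61.0 CPM over the LNCaP libraries, where no other gene of the list exceeded 0.723 CPM. The luminal list stood at 6477 to 7103 CPM with ERG and 6090 to 6914 CPM with ETV1, against 7462 to 7594 CPM, and the part of both lists was not tested.

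In SW13 the addition of ERG gave mostly falls, of modest size. Beside GFP, 1 of the 9 genes rose and 3 fell, where 26% of all 17018 genes tested were called (12.6% higher, 13.5% lower). Beside BRG1-K785R none rose and 6 fell, where 56.2% were called (25.3% higher, 30.9% lower), and beside BRG1 none rose and 5 fell, where 45.4% were called (22.6% higher, 22.8% lower). Of the genes called beside GFP 48.3% were higher, and 62.0% on library totals. The median change of the 9 genes was -0.06 beside GFP, -0.45 beside BRG1-K785R and -0.39 beside BRG1. SMARCA4 was lower in BRG1-K785R ERG cells, at 1423 ± 9.30 CPM, against 2110 ± 99.5 CPM in BRG1-K785R Empty cells (-0.76 ± 0.08, adjusted p = 6.88e-10), and its part in the changes beside BRG1-K785R was not tested. On library totals the median of all genes moved up by 0.19 beside BRG1-K785R, and the higher share of called genes was 64.5%, against 45.1%.

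By RPKM, DUSP6 was the most abundant of the set in 4 of the SW13 groups and SPRY2 in BRG1 ERG and BRG1-K785R Empty. DUSP6 had 327 and 296 CPM in BRG1 ERG, against 400 and 441 CPM in BRG1 Empty (-0.39 ± 0.07, adjusted p = 5.56e-05). It had 516 and 519 CPM in BRG1-K785R ERG, against 530 and 529 CPM in BRG1-K785R Empty (-0.22 ± 0.07, adjusted p = 0.0103), and that call did not hold on library totals (-0.03, adjusted p = 0.691). Beside GFP it had 715 and 737 CPM with ERG, against 946 and 1031 CPM without (-0.50 ± 0.07, adjusted p = 6.87e-06). DUSP6 was thus lower in every ERG library than in its controls. DUSP4 had 8.55 and 8.90 CPM in BRG1 ERG, against 9.85 and 8.88 CPM in BRG1 Empty, and was not called beside any construct, nor was DUSP5 with 37.3 and 33.6 CPM, against 42.6 and 40.8 CPM (-0.19 ± 0.11, adjusted p = 0.16). Without GFP ERG 1, DUSP4 was at the threshold beside GFP (0.63, adjusted p = 0.05), and beside BRG1-K785R DUSP5 was called higher on library totals (0.33, adjusted p = 0.0304).

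SPRY4 had 49.5 and 57.5 CPM in BRG1 ERG, against 86.1 and 94.8 CPM in BRG1 Empty (-0.71 ± 0.08, adjusted p = 3.09e-08). It had 43.4 and 52.3 CPM in BRG1-K785R ERG, against 69.3 and 70.1 CPM in BRG1-K785R Empty (-0.73 ± 0.09, adjusted p = 1.65e-08). Both falls were without overlap, whereas beside GFP the libraries overlapped at 24.4 and 27.0 CPM, against 25.1 and 22.5 CPM (0.06 ± 0.10, adjusted p = 0.722). SPRY2 had 233 and 229 CPM in BRG1 ERG, against 227 and 243 CPM (0.02 ± 0.07), 259 and 271 CPM in BRG1-K785R ERG, against 367 and 353 CPM (-0.63 ± 0.07, adjusted p = 4.16e-09), and 371 and 377 CPM in GFP ERG, against 466 and 492 CPM (-0.41 ± 0.07, adjusted p = 5.72e-05). ERG thus went with less SPRY2 in the groups without wild-type BRG1 and with no called change beside it. SPRY1 had 124 and 125 CPM in BRG1 ERG, against 124 and 134 CPM (-0.00 ± 0.07), 109 and 117 CPM in BRG1-K785R ERG, against 135 and 137 CPM (-0.45 ± 0.07, adjusted p = 3.84e-06), and 133 and 130.2 CPM in GFP ERG, against 145 and 155 CPM (-0.24 ± 0.07, adjusted p = 0.0129). The call beside GFP was lost without GFP Empty 2 (-0.17, adjusted p = 0.225), GFP ERG 1 (-0.26, adjusted p = 0.0782) or GFP ERG 2 (-0.23, adjusted p = 0.107).

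SPRED2 had 58.7 and 62.1 CPM in BRG1 ERG, against 96.4 and 102 CPM in BRG1 Empty (-0.67 ± 0.07, adjusted p = 4.7e-09), and 75.9 and 82.3 CPM in BRG1-K785R ERG, against 116 and 117 CPM (-0.74 ± 0.07, adjusted p = 2.57e-10). Beside GFP the direction was the other, with 114 and 121 CPM in GFP ERG, against 87.3 and 88.0 CPM in GFP Empty (0.37 ± 0.07, adjusted p = 0.000303). Beside each construct, the ERG and Empty libraries did not overlap. SPRED1 fell beside BRG1, with 42.3 and 48.6 CPM, against 65.9 and 62.9 CPM (-0.46 ± 0.08, adjusted p = 1.72e-05). It was not called beside BRG1-K785R, at 43.0 and 41.3 CPM, against 36.3 and 37.2 CPM (0.01 ± 0.08), or GFP, at 64.6 and 64.0 CPM, against 67.0 and 62.5 CPM (-0.06 ± 0.08). On library totals it was called higher beside BRG1-K785R (0.20, adjusted p = 0.0394).

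PHLDA1 had 7.71 and 7.33 CPM in BRG1 ERG, against 21.6 and 25.2 CPM in BRG1 Empty, the largest fall of the set with ERG (-1.59 ± 0.14, 3.01-fold, adjusted p = 9.87e-11). It had 3.14 and 2.17 CPM in BRG1-K785R ERG, against 4.89 and 4.39 CPM (1.99-fold lower, adjusted p = 0.000133). Beside GFP it was near 1 CPM in all 4 libraries, at 1.02 and 1.04 CPM, against 0.980 and 1.72 CPM, or 22 to 44 counts (-0.47 ± 0.30, adjusted p = 0.272). All genes called beside GFP numbered 4433, and 1743, 2199 and 2474 without GFP Empty 2, GFP ERG 1 and GFP ERG 2.

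The ERK output genes outside the set fell with ERG beside BRG1: 10 of 11 were called lower, none higher, and their median change was -0.97, against -0.004 over all genes tested. Of all genes tested, 22.6% were called higher there and 22.8% lower. ETV4 (16.8 ± 0.0812 CPM in BRG1 ERG, against 54.6 ± 3.15 CPM in BRG1 Empty, -1.65 ± 0.08, adjusted p = 8.98e-17), ETV5 (-0.88 ± 0.07, adjusted p = 2.55e-12) and FOSL1 (-2.03 ± 0.11, adjusted p = 1.04e-15) are transcription factor genes induced by ERK. The counts of the 11 output genes were 1 higher and 7 lower beside BRG1-K785R and 0 higher and 4 lower beside GFP, by edgeR. All genes were called higher in 25.3% and lower in 30.9% beside BRG1-K785R, and in 12.6% and 13.5% beside GFP. Of 21 receptors and ligands beside BRG1, 1 rose and 9 fell, with the ERBB ligand NRG1 at 66.1 ± 1.77 CPM, against 181 ± 0.566 CPM (-1.41 ± 0.07, adjusted p = 1.76e-16). Of 13 further inhibitory genes, 2 rose and 3 fell, with IL17RD at -1.42 ± 0.12 and SPRY3 at 1.40 ± 0.21. The kinase gene RPS6KA2 rose (3.20 ± 0.23, adjusted p = 3.71e-13). The 6 endothelial markers summed to 53.7 to 64.6 CPM in BRG1 ERG, against 21.0 to 21.4 CPM in BRG1 Empty, to 30.1 to 32.8 CPM in BRG1-K785R ERG, against 13.0 to 13.4 CPM in BRG1-K785R Empty, and to 28.2 CPM in both GFP ERG libraries, against 22.3 to 23.5 CPM in GFP Empty. The 9 luminal markers summed to 155 to 203 CPM in BRG1 ERG, against 72.1 to 73.3 CPM in BRG1 Empty, to 39.6 to 39.9 CPM in BRG1-K785R ERG, against 21.7 to 23.2 CPM in BRG1-K785R Empty, and to 17.5 to 19.4 CPM in GFP ERG, against 18.1 to 18.4 CPM in GFP Empty. The 5 leukocyte markers summed to 4.84 to 4.85 CPM in BRG1 ERG, against 1.04 to 1.39 CPM in BRG1 Empty, and the 5 fibroblast markers to 468 CPM in both GFP ERG libraries, against 316 to 375 CPM in GFP Empty. The part of these lists in the effects of ERG was not tested.

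Whether the effect of ERG depended on the BRG1 construct was tested as a difference of log2 changes. Between BRG1 and GFP, 5 of the 9 genes differed, where 37.8% of all genes did (19.1% higher, 18.7% lower): SPRED2 by -1.04 ± 0.10 (adjusted p = 2.86e-09), SPRY4 by -0.77 ± 0.13 (adjusted p = 2.16e-05), PHLDA1 by -1.12 ± 0.34 (adjusted p = 0.00988), SPRED1 by -0.39 ± 0.11 (adjusted p = 0.00545) and SPRY2 by 0.43 ± 0.10 (adjusted p = 0.000851). The first 4 had a more negative ERG effect beside BRG1 than beside GFP, and SPRY2 a less negative one. PHLDA1 was not called without GFP Empty 1 (-0.77, adjusted p = 0.0916), nor SPRED1 without BRG1 ERG 1 (-0.29, adjusted p = 0.0606). SPRY1 was called by DESeq2 (0.24, adjusted p = 0.0458), without BRG1-K785R ERG 1 (0.24, adjusted p = 0.0492) and without GFP Empty 1 (0.32, adjusted p = 0.0291), and DUSP4 without GFP ERG 1 (-0.69, adjusted p = 0.0487). Between BRG1-K785R and GFP, 3 genes differed, where 39.8% did (17.5% higher, 22.4% lower): SPRED2 by -1.11 ± 0.10 (adjusted p = 3.09e-10), SPRY4 by -0.79 ± 0.13 (adjusted p = 1.2e-05) and DUSP6 by 0.28 ± 0.10 (adjusted p = 0.0294). DUSP6 lost its call when any of 6 SW13 libraries was left out, with an adjusted p of 0.206 without GFP Empty 2 (0.19), 0.129 without GFP ERG 1 (0.25), 0.0596 without GFP ERG 2 (0.31), 0.0576 without BRG1-K785R Empty 1 (0.28), 0.0643 without BRG1-K785R Empty 2 (0.27) and 0.0538 without BRG1-K785R ERG 1 (0.26). DUSP4 was called without BRG1-K785R Empty 2 (-0.71, adjusted p = 0.0352) or GFP ERG 1 (-0.73, adjusted p = 0.036), and SPRY2 without GFP Empty 2 (-0.29, adjusted p = 0.0408). Between BRG1 and BRG1-K785R, 3 genes differed, where 46.2% did (25.8% higher, 20.4% lower): SPRY2 by 0.65 ± 0.10 (adjusted p = 3.04e-06), SPRY1 by 0.45 ± 0.10 (adjusted p = 0.000615) and SPRED1 by -0.47 ± 0.12 (adjusted p = 0.00128). PHLDA1 was at -0.59 without a call (adjusted p = 0.0592) and was called without BRG1 Empty 1 (-0.69, adjusted p = 0.0492), BRG1-K785R ERG 2 (-0.85, adjusted p = 0.0165), GFP Empty 1 (-0.59, adjusted p = 0.0471) or GFP Empty 2 (-0.59, adjusted p = 0.0464) and on library totals (-0.83, adjusted p = 0.0127). The ERG effect on SMARCA4 also differed between BRG1 and BRG1-K785R (0.76 ± 0.11, adjusted p = 1.02e-06). It differed between BRG1-K785R and GFP as well (-0.97 ± 0.12, adjusted p = 1.03e-07). The part of SMARCA4 in these differences was not tested. For SPRED2 and SPRY4 the ERG effects with BRG1 and BRG1-K785R differed by 0.07 ± 0.10 (adjusted p = 0.58) and 0.02 ± 0.12 (adjusted p = 0.901), which does not show that they were equal.

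**Figure D4:**
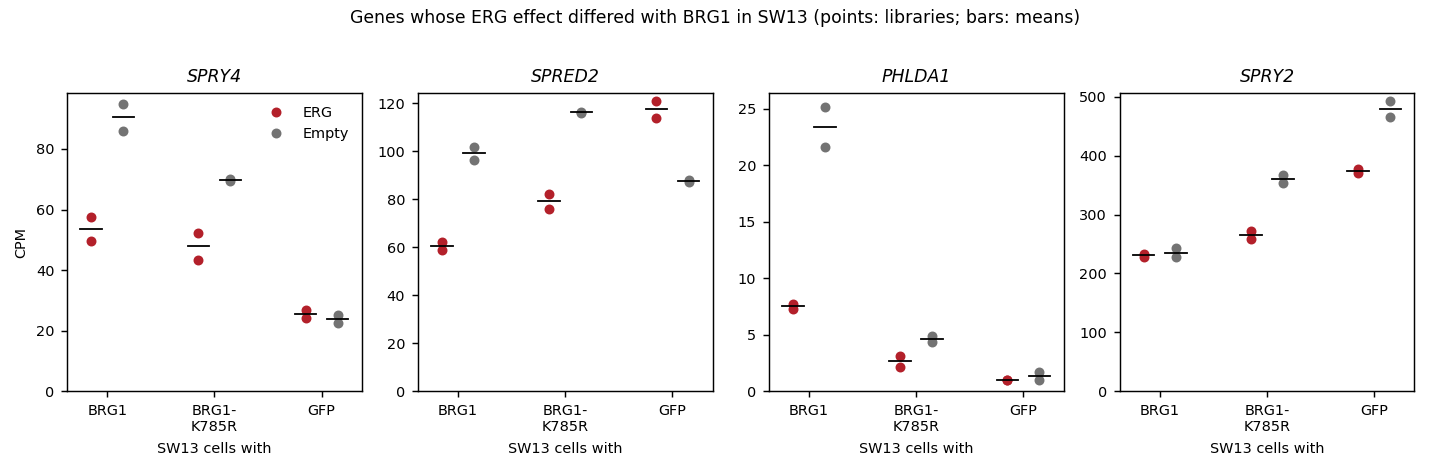
Level (CPM, axes from 0) of SPRY4, SPRED2, PHLDA1 and SPRY2 in SW13 libraries with ERG (red) or the empty vector (grey), beside BRG1, BRG1-K785R or GFP; points are libraries and bars means of 2. SPRY4 and SPRED2 are lower with ERG beside both BRG1 forms and not beside GFP, PHLDA1 shows its largest gap beside BRG1, and SPRY2 shows none there.

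Adding BRG1 itself moved the set in both directions. In cells without ERG, BRG1 against GFP gave 4 rises and 3 falls, where 62.4% of all genes were called (32.2% higher, 30.2% lower), and BRG1-K785R against GFP gave 5 rises and 3 falls, where 58.7% were (32.3% higher, 26.4% lower). Of the genes called with BRG1, 51.6% were higher, and 64.0% on library totals. SMARCA4 was at 2175 ± 36.0 CPM in BRG1 Empty and 2110 ± 99.5 CPM in BRG1-K785R Empty, against 28.5 ± 4.17 CPM in GFP Empty. PHLDA1 had 21.6 and 25.2 CPM in BRG1 Empty and 4.89 and 4.39 CPM in BRG1-K785R Empty, against 0.980 and 1.72 CPM in GFP Empty. The 3 groups were separate, and it was the largest rise of the set (3.95 ± 0.19, 15.5-fold, adjusted p = 4.15e-18, for BRG1 and 1.84 ± 0.23, adjusted p = 2.39e-08, for BRG1-K785R), and without GFP Empty 2 the changes were 4.46 and 2.35.

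DUSP5 had 42.6 and 40.8 CPM in BRG1 Empty and 17.1 and 14.7 CPM in BRG1-K785R Empty, against 7.97 and 11.4 CPM in GFP Empty. It rose with both forms (1.96 ± 0.13, adjusted p = 6.7e-15, and 0.79 ± 0.13, adjusted p = 6.87e-06). SPRY4 had 86.1 and 94.8 CPM and 69.3 and 70.1 CPM, against 25.1 and 22.5 CPM (1.79 ± 0.09, adjusted p = 1.94e-17, with BRG1 and 1.63 ± 0.09, adjusted p = 7.99e-16, with BRG1-K785R). In both genes the BRG1 libraries lay above the BRG1-K785R libraries. DUSP4 had 9.85 and 8.88 CPM and 8.16 and 5.88 CPM, against 3.25 and 4.04 CPM (1.22 ± 0.18, adjusted p = 4.83e-07, and 1.03 ± 0.18, adjusted p = 1.43e-05).

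DUSP6 and SPRY2, the abundant members, went down. DUSP6 had 400 and 441 CPM in BRG1 Empty and 530 and 529 CPM in BRG1-K785R Empty, against 946 and 1031 CPM in GFP Empty (-1.37 ± 0.07, adjusted p = 9.32e-17, and -0.82 ± 0.07, adjusted p = 2.37e-11). SPRY2 had 227 and 243 CPM and 367 and 353 CPM, against 466 and 492 CPM (-1.16 ± 0.07, adjusted p = 1.91e-15, and -0.33 ± 0.07, adjusted p = 0.000109). Both genes were lowest with BRG1 and between with BRG1-K785R. SPRY1 fell with BRG1 (-0.35 ± 0.07, adjusted p = 8.99e-05) and was not called with BRG1-K785R (-0.07 ± 0.07, adjusted p = 0.444). SPRED1 did the opposite, at -0.14 ± 0.08 with BRG1 (adjusted p = 0.121) and -0.74 ± 0.08 with BRG1-K785R (adjusted p = 2.28e-09). SPRED2 was not called with BRG1 (0.04 ± 0.07) and rose with BRG1-K785R (0.49 ± 0.07, adjusted p = 5.51e-07), and with library totals as the scale, which moved the median of all genes by 0.13, it was called with BRG1 as well (0.18, adjusted p = 0.0254).

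BRG1 and BRG1-K785R, set against each other without ERG, differed in 7 of the 9 genes, where 66.7% of all genes did, 32.6% higher and 34.1% lower. BRG1 had more PHLDA1 (2.11 ± 0.15, adjusted p = 1.89e-13), DUSP5 (1.18 ± 0.12, adjusted p = 2.11e-10) and SPRED1 (0.60 ± 0.08, adjusted p = 9.73e-08), and less SPRY2 (-0.83 ± 0.07, adjusted p = 5.52e-12), DUSP6 (-0.55 ± 0.07, adjusted p = 8.21e-08), SPRED2 (-0.44 ± 0.07, adjusted p = 1.97e-06) and SPRY1 (-0.29 ± 0.07, adjusted p = 0.000885). SPRY4 (0.16 ± 0.08, adjusted p = 0.0886) and DUSP4 (0.19 ± 0.16, adjusted p = 0.294) were not called. With library totals as the scale the all-gene median shifted by 0.21, and on that scale 66.0% of called genes were higher, against 48.9% with TMM, SPRY1 lost its call (-0.07, adjusted p = 0.345), and SPRY4 (0.37, adjusted p = 0.000703) and DUSP4 (0.41, adjusted p = 0.035) were called.

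The same comparisons among ERG cells gave 4 rises and 4 falls for BRG1 against GFP, where 58.9% of all genes were called (30.4% higher, 28.5% lower), 4 rises and 5 falls for BRG1-K785R against GFP, where 40.5% were (20.5% higher, 20% lower), and 2 rises and 3 falls for BRG1 against BRG1-K785R, where 47% were (24.3% higher, 22.6% lower). PHLDA1 (2.83 ± 0.22), DUSP5 (1.80 ± 0.13), SPRY4 (1.03 ± 0.09) and DUSP4 (0.76 ± 0.17) were higher in BRG1 ERG than in GFP ERG, and DUSP6 (-1.26 ± 0.07), SPRED2 (-0.99 ± 0.07), SPRY2 (-0.73 ± 0.07) and SPRED1 (-0.53 ± 0.08) were lower. BRG1-K785R ERG against GFP ERG gave changes of the same sign in these 8 genes, between -0.66 and 1.31, and a fall of SPRY1 (-0.28 ± 0.07, adjusted p = 0.00306). The rise of DUSP4 with BRG1-K785R (0.53 ± 0.18, adjusted p = 0.0172) was lost without GFP ERG 1 (0.30, adjusted p = 0.296) or BRG1-K785R ERG 2 (0.45, adjusted p = 0.11). SMARCA4 was at 2111 ± 216 CPM in BRG1 ERG, against 1423 ± 9.30 CPM in BRG1-K785R ERG (0.59 ± 0.08, adjusted p = 1.23e-07). Its part in the differences between these groups was not tested. BRG1 ERG exceeded BRG1-K785R ERG in PHLDA1 (1.52 ± 0.19) and DUSP5 (0.84 ± 0.12), and was below it in DUSP6 (-0.71 ± 0.07), SPRED2 (-0.37 ± 0.07) and, by an adjusted p of 0.0338 that 7 of the alternatives took above the threshold, SPRY2 (-0.18 ± 0.07). Those were, with the adjusted p of each, the fit without a filter (0.0563) and the fits without GFP ERG 1 (0.0553), GFP ERG 2 (0.0562), BRG1-K785R ERG 1 (0.058), BRG1-K785R ERG 2 (0.0866), BRG1 ERG 1 (0.0758) and BRG1 ERG 2 (0.145). SPRY4, not called there, was called higher without BRG1 ERG 1 (0.29, adjusted p = 0.0182) or BRG1-K785R ERG 2 (0.30, adjusted p = 0.0218), SPRED1 without BRG1 ERG 1 (0.23, adjusted p = 0.049) and SPRY1 by DESeq2 (0.16, adjusted p = 0.0494).

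Other pathway genes of SW13 were also called with BRG1. Of 21 receptors and ligands, 12 rose and 5 fell for BRG1 against GFP without ERG. Of all genes tested, 62.4% were called in this comparison, 32.2% higher and 30.2% lower. The ligand genes EGF (38.1 ± 3.24 CPM in BRG1 Empty, against 1.72 ± 0.287 CPM in GFP Empty, 4.32 ± 0.16, adjusted p = 5.3e-21) and HBEGF (2.01 ± 0.12) and the receptor gene MET (4.92-fold, 33.9 ± 1.09 CPM, against 6.31 ± 0.719 CPM) rose. Of 11 ERK output genes, 5 rose and 5 fell, and EGR1 (43.1 ± 5.09 CPM, against 278 ± 27.8 CPM, -2.83 ± 0.10, adjusted p = 2.04e-21), EGR3 (-1.76 ± 0.13) and MYC (-1.23 ± 0.08) were among the falls. Of 13 further inhibitory genes, 7 rose and 3 fell, with ERRFI1 (1.69 ± 0.09) and DUSP8 (1.75 ± 0.13) higher and DUSP2 (-1.63 ± 0.16) lower. The fibroblast list stood at 212 to 218 CPM in BRG1 Empty and 201 to 204 CPM in BRG1-K785R Empty, against 316 to 375 CPM in GFP Empty. The luminal list stood at 72.1 to 73.3 CPM in BRG1 Empty and 21.7 to 23.2 CPM in BRG1-K785R Empty, against 18.1 to 18.4 CPM in GFP Empty, the endothelial list at 21.0 to 21.4 CPM and 13.0 to 13.4 CPM, against 22.3 to 23.5 CPM, and the leukocyte list at 1.04 to 1.39 CPM and 1.47 to 1.49 CPM, against 2.23 to 2.76 CPM. Their part was not tested.

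Set side by side, the phosphatase genes DUSP4 and DUSP5 were lower with less ERG in VCaP (-1.53 and -2.60) and higher with more ERG in LNCaP (2.19 and 1.48), and were called in none of the 3 comparisons of ERG in SW13. SPRY4 and SPRED2 were lower in VCaP with shERG (-1.24 and -1.65), higher in LNCaP with ERG (2.91 and 0.68), and lower in SW13 with ERG beside BRG1 (-0.71 and -0.67) and BRG1-K785R (-0.73 and -0.74). Beside GFP in SW13, SPRED2 was higher with ERG (0.37), as in LNCaP, and SPRY4 was not called (0.06). SPRY2 was called in no comparison within the prostate lines. No test was made between the lines.

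Over the 12 groups, after the mean of each line was subtracted, DUSP4, DUSP5 and SPRY4 had the most similar patterns within the set (Pearson r on log2(CPM + 1) of 0.83 for DUSP4 with DUSP5, 0.82 for DUSP4 with SPRY4 and 0.81 for DUSP5 with SPRY4), and SPRY2 was least like DUSP5 (-0.69). Among 12057 genes averaging 5 CPM or more, the closest included RALGAPA2 (0.943) for DUSP4, and were KRT80 (0.959) and SGK223 (0.934) for DUSP5, ETV1 and RGS4 (both 0.850) for DUSP6, EMC10 (0.886) and GRPR (0.882) for SPRY1, and KLF10 (0.966) and FKBP14 (0.959) for SPRY2. For the others they were SOX9 (0.868) and CSRP1 (0.852) for SPRY4, HMGA2 (0.926) and NUCKS1 (0.902) for SPRED1, NRM (0.892) and RNPEPL1 (0.887) for SPRED2, and FAM174B (0.961) and MAP1B (0.960) for PHLDA1. ETV1 is also the gene added by construct in LNCaP ETV1, the LNCaP group with the most DUSP6, so its value for DUSP6 is not independent of the design. The 12 points share libraries, depth and controls, and were picked from many genes, so these values are a description.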

How the data were processed

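PolyA RNA of VCaP, LNCaP and SW13 cells was sequenced as 75 base single-end reads after 48 h with lentivirus and selection, per the labels' protocols. The authors deposited, for each library, read counts per gene, with gene length and RPKM beside them. The deposited counts were whole numbers and were the values tested, and the ratio of counts scaled by total and length to the deposited RPKM was 1.00 for every value. STAR 2.3.1 and hg19 are named per the submitters' processing notes; which program, annotation and strand setting did the counting is not given in those sources. The SW13 control is GFP in the titles and luciferase in the treatment protocol; GFP is used here.

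Each line was fitted with all its groups in edgeR 4.0.16 (R 4.3.3, limma 3.58.1): TMM scaling, filterByExpr by group, quasi-likelihood F test, two-sided, Benjamini-Hochberg adjustment over 16791 (VCaP), 16993 (LNCaP) and 17018 (SW13) genes, threshold 0.05. Residual degrees of freedom were 3, 3 and 6, and the common coefficients of biological variation 0.0394, 0.0608 and 0.0571. There were 15 comparisons of groups and 3 differences between ERG effects. Libraries of a group differed beyond counting error (chi-square per degree of freedom 2.32 to 13.8). CPM used the library total. Standard errors are approximate. The fit was tested on simulated data. Python 3.11.15 with pandas 2.3.3, numpy 2.4.6 and matplotlib 3.10.9 made tables and figures.

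The 9 members and the pathway lists were chosen with earlier results of these data known. Named were all members, the targeted genes, of each pathway list up to 3 called genes by smallest adjusted p in 7 comparisons (some left out for space), and per member the 2 genes most like it; clone, LOC, open reading frame, pseudogene and small RNA names were left out. A gene among those most like DUSP4 is not reported here. Cell type marker lists were prostate luminal, adrenal cortex, endothelial, leukocyte and fibroblast genes. The leukocyte list summed to 0.433 to 28.0 CPM over all libraries. A sum could rest mostly on 1 gene. The fibroblast list was mostly COL3A1 in SW13 (149 to 459 CPM) and mostly COL1A1 in LNCaP (20.9 to 88.0 CPM). Alternatives were RLE scaling, library totals, no filter, DESeq2 1.42.0, the replicate number as a block and leaving out each library. Promoter windows came from RefSeq (GRCh38.p14), a build other than that of the counts.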

Additional observations from a re-analysis of the deposited data

Results flagged for a closer look

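A result was taken up here because the test of the difference itself, the interaction term in edgeR's quasi-likelihood fit with Benjamini-Hochberg adjustment, was called: the effect of ERG in SW13 cells differed with the construct beside it. Between BRG1 and GFP, the ERG effect differed by 0.43 for SPRY2, -0.77 for SPRY4, -0.39 for SPRED1, -1.04 for SPRED2 and -1.12 for PHLDA1, all as log2 differences, where 37.8% of all genes tested differed. Between BRG1-K785R and GFP it differed by 0.28 for DUSP6, -0.79 for SPRY4 and -1.11 for SPRED2, where 39.8% did. Between BRG1 and BRG1-K785R it differed by 0.45 for SPRY1, 0.65 for SPRY2 and -0.47 for SPRED1, where 46.2% did. SPRED2 is the member whose ERG effect had called changes of opposite sign: -0.67 beside BRG1 and -0.74 beside BRG1-K785R, against 0.37 beside GFP. Genes outside the set did so too. ARID1A was called at -0.60 beside BRG1, -0.66 beside BRG1-K785R and 0.40 beside GFP. ETV1 was called at -0.21, 0.51 and 0.40 in the same order. The part of ARID1A and ETV1 was not tested. ERG itself stood at 2003 ± 204 CPM in BRG1 ERG, 1597 ± 16.9 CPM in BRG1-K785R ERG and 1530 ± 79.9 CPM in GFP ERG (SD, n = 2 each), and its part in these differences was not tested. All group sizes were below 4, so no sample was tested as an outlier.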

How the results depend on the processing

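Over all alternatives, 2347 of the recomputed log2 changes of the 9 genes kept their side of the threshold, 49 lost a call and 34 gained one. No called value changed sign. The 2347 include values called in neither fit whose sign changed. An example is DUSP5 with ERG beside GFP in SW13, at -0.27 to 0.29 over the alternatives. The members called kept within 1.5 times of their count in every alternative except 1: for the ERG effect with BRG1 minus that with BRG1-K785R, 5 members were called with library totals as the scale, against 3, as DUSP5 (-0.57), DUSP6 (-0.40) and PHLDA1 (-0.83) were added and SPRY1 (0.21) was lost. Leaving out 1 library in turn gave 2632 to 4869 called genes for LNCaP ERG minus Empty (5045 with all libraries), 1987 to 4485 for ETV1 minus Empty (4439), 1003 to 1707 for ERG minus ETV1 (2441) and 1743 to 4813 for SW13 ERG minus Empty with GFP (4433); a fit with fewer libraries has fewer degrees of freedom. A lone library left in a group was assumed to vary like the others.

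The share of called genes that were higher moved by over 10 points with library totals in 10 of the 18 comparisons, also in LNCaP ERG minus ETV1 (64.8%, against 54.8% with TMM) and in the differences of ERG effects, BRG1 minus GFP (37.1%, against 50.4%), BRG1-K785R minus GFP (59.8%, against 43.8%) and BRG1 minus BRG1-K785R (29.9%, against 55.8%). The median of all genes moved by 0.14 in the difference BRG1-K785R minus GFP and by -0.23 in BRG1 minus BRG1-K785R. The cause was not tested.

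The replicate numbers were not taken as pairs: same-numbered libraries correlated in their deviations from the group means at -0.034 to 0.029 in VCaP, -0.165 to -0.012 in LNCaP and -0.18 to 0.26 in SW13. With the replicate number as a block, 6 members were called in LNCaP ERG minus Empty, against 7 (SPRED1, adjusted p = 0.0636), and no other member changed its call. The block moved the count of all called genes to 1783, against 2441, in LNCaP ERG minus ETV1.

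Depth limited the low members most: DUSP5 in shERG cells, SPRY4 in LNCaP Empty and PHLDA1 beside GFP rested on 22 to 61 counts per library, and DUSP6 in VCaP on 24 to 78.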
